A study of Mus musculus and Homo sapiens with 4 samples.

Results

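The keratin family was examined in RNA sequencing of VCaP and VCaP ERα cells. A keratin entry was any entry of the deposited tables with a symbol made of KRT, digits and at most a letter A, B or C, so that keratin-associated proteins (KRTAP) and the pseudogene-type symbol KRT222P did not qualify. The rule found 54 of 25932 entries, each present in both libraries, and 28 of them encode type I and 26 type II keratins. VCaP, a line from prostate cancer, was used at passages 5 to 6, and VCaP ERα, the derivative that the study made to express ERα (oestrogen receptor alpha) stably, at passages 4 to 5. Both were kept in the same serum-containing medium, no hormone treatment is given in the labels, and ribosomal RNA was depleted from total RNA before strand-marked libraries were made. Whether VCaP ERα is a single clone, and which promoter drives ERα, is not given in the sources used here. The series holds 4 samples, and the other 2, mouse fibroblasts of wild-type and NEAT1 KO embryos, were not used. Each condition has 1 library, so that replicate error is unknown and no test was made.

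Keratins are the intermediate filament proteins of epithelial cells. Every filament is built from heterodimers of an acidic type I and a basic type II chain, so that the chains are made in pairs, such as KRT18 with KRT8 in simple epithelium, KRT14 with KRT5 in the basal layer of stratified epithelium, and the hair keratins in the hair shaft. In the prostate, luminal cells are known for KRT8 and KRT18 and basal cells for KRT5 and KRT14, and pathologists use these proteins to tell the layers apart.

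The values are RPKM, that is read numbers scaled by transcript length and by the library's mapped reads, which allows levels of different genes to be compared. Log2 ratios were computed as VCaP ERα over VCaP after adding 1 RPKM to both values, and an entry was called lower below -2 and higher above 2. Where a pair of values stands in parentheses, VCaP comes first. Depth is unknown, and entries of 0 are described as listed at 0, since 8757 entries were at 0 in VCaP and 3607 in VCaP ERα. The overexpressed gene ESR1 had 15.7 RPKM in VCaP against 209 RPKM in VCaP ERα. Of 12 prostate luminal genes, none exceeded 8.18 RPKM in the library labelled VCaP, where KLK4, FOLH1 and NPY were listed at 0, and their sum was 20.3 RPKM against 3165 RPKM in VCaP ERα. The 14 mammary luminal genes summed to 2804 RPKM in the library labelled VCaP and to 357 RPKM in VCaP ERα. The first sum rested mainly on TFF1 (1596 RPKM), XBP1 (623 RPKM) and TFF3 (285 RPKM), while SCGB2A2 was listed at 0 there. Of the 14 mammary luminal genes, 10 had log2 ratios below 0 and 4 above 0. The defining markers of the labelled tissue were therefore abundant in VCaP ERα and low or at 0 in the library labelled VCaP, which is called VCaP below by its label alone. A difference between the cells behind the libraries and an effect of ERα cannot be told apart in any keratin value. Over the 9754 entries that reached 1 RPKM in each library, the median log2 ratio was -0.59, so a keratin with that ratio was as much lower as the typical expressed entry.

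The keratin family as a whole was lower in VCaP ERα. Its summed level was 4362 RPKM in VCaP, or 1.63% of the RPKM of all entries, and 135 RPKM in VCaP ERα, or 0.0683%. The summed level was thus 32.4-fold lower, against 1.36-fold lower for all entries together. In bulk RNA, fewer keratin-rich cells and less keratin RNA per cell cannot be told apart. Of the 54 entries, 11 were called lower (20.4%) and 0 higher, while 6.56% of all entries were called lower and 2.27% higher. Centring on the typical expressed entry left 9 keratins lower and 0 higher, and turned the split over all entries from 1701 lower and 588 higher to 868 lower and 1238 higher. The 11 were KRT8, KRT18, KRT19, KRT7, KRT17, KRT15, KRT6A, KRT23, KRT80, KRT81 and KRT83. The median log2 ratio over all 54 entries was nevertheless 0.25, because most of the family sat near 0 in VCaP and slightly above it in VCaP ERα.

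Direction went with the VCaP level. Only 16 keratins reached 1 RPKM in VCaP, and all 16 were lower in VCaP ERα, except that KRT13 turned slightly positive after centring or quantile normalization. Of these 16, 11 were called lower (68.8%), against 14.5% of all entries with at least 1 RPKM in VCaP. The other 38 keratins were below 1 RPKM in VCaP, and 34 of them were higher in VCaP ERα, 2 were lower (KRT20 and KRT6C) and 2 were listed at 0 in both libraries (KRT26 and KRT28). After quantile normalization 30 of the 38 were higher. Of all 14162 entries under 1 RPKM in VCaP, 9251 were higher in VCaP ERα, and 6618 were higher after quantile normalization. Because the VCaP value takes part in the ratio, this grouping favours opposite directions by its construction and is given as a description. By level, 8 keratins had at least 1 RPKM in both libraries, 8 in VCaP alone, 13 in VCaP ERα alone and 25 in neither.

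**Figure D1:**
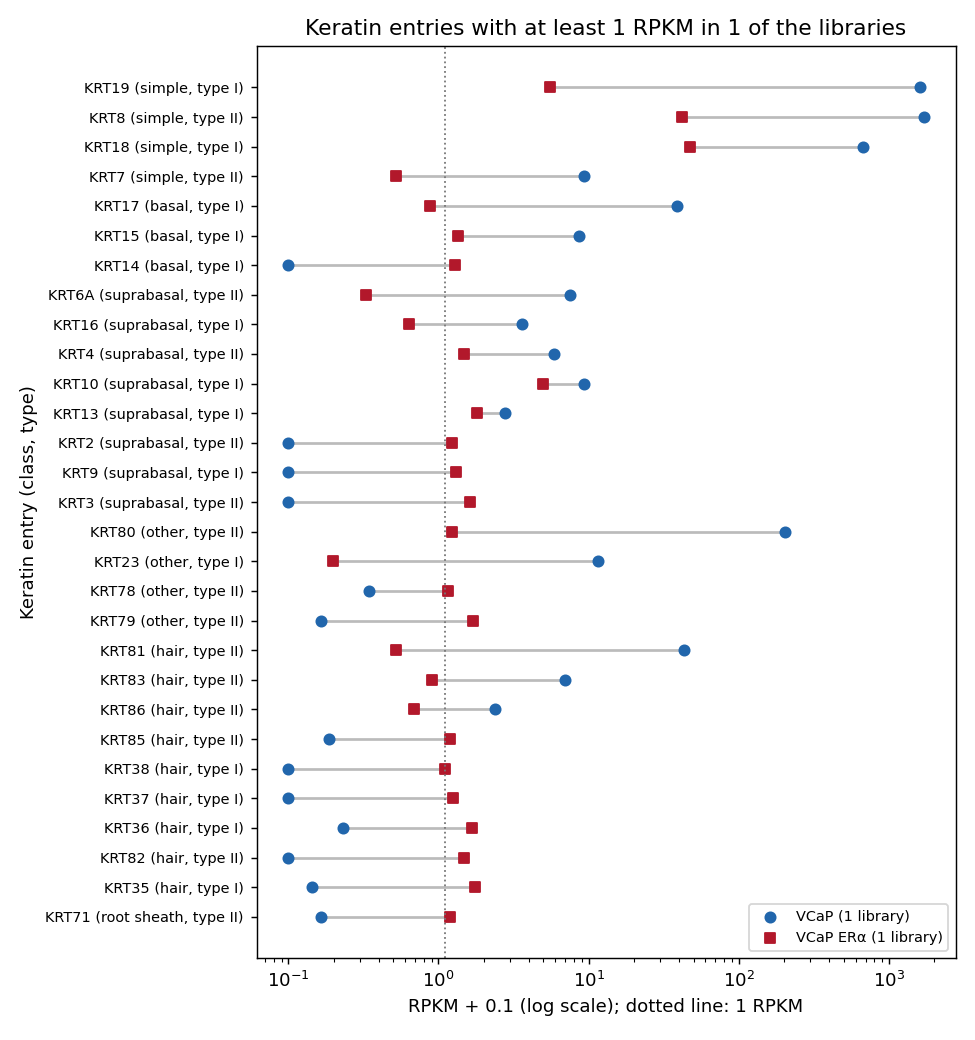
RPKM plus 0.1 on a log axis for the 29 keratin entries with at least 1 RPKM in at least 1 library, with the VCaP library as circles, the VCaP ERα library as squares, and 1 point per library. KRT8, KRT18 and KRT19 had 673 to 1708 RPKM in VCaP and 5.44 to 46.9 RPKM in VCaP ERα, whereas the 13 keratins that reached 1 RPKM in VCaP ERα alone stayed at or below 1.66 RPKM.

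Simple epithelial keratins carried most of the family's RPKM in both libraries. KRT8, the type II chain of simple epithelium (chromosome 12, 51577238 to 51629893, hg18 as named in the submitters' processing notes), had 1708 RPKM in VCaP against 41.5 RPKM in VCaP ERα, giving a log2 ratio of -5.33. It ranked 4 of all 25932 entries in VCaP and 723 in VCaP ERα. Its type I partner KRT18 (chromosome 12, 51628922 to 51632952) had 673 RPKM in VCaP against 46.9 RPKM in VCaP ERα, giving a log2 ratio of -3.82, and ranked 38 and 632. Both members of the pair were therefore among the most abundant transcripts in VCaP and remained moderately expressed in VCaP ERα.

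KRT19, a type I keratin of simple and ductal epithelium that lacks most of the tail domain of other keratins, lay at chromosome 17, 36933395 to 36938167. It had 1625 RPKM in VCaP against 5.44 RPKM in VCaP ERα. Its log2 ratio of -7.98 was the 3rd lowest of all entries, and the level was 299-fold lower, against 41.1-fold lower for KRT8 and 14.4-fold lower for KRT18. KRT19 thus moved from rank 5 to rank 4790. KRT7, the type II keratin of ductal and glandular epithelia, had 9.21 RPKM in VCaP against 0.424 RPKM in VCaP ERα, giving a log2 ratio of -2.84. KRT20, known from intestinal and urothelial epithelium, was low in both, with 0.670 RPKM in VCaP against 0.0445 RPKM in VCaP ERα.

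The order of the abundant simple keratins differed between the libraries. In VCaP, KRT8 and KRT19 were close together and KRT8 was 2.54 times KRT18. In VCaP ERα the KRT8 and KRT18 levels were close to each other, with a KRT8 to KRT18 ratio of 0.885, and KRT19 was 8.62-fold below KRT18. KRT8, KRT18 and KRT19 together made up 91.9% of the keratin sum in VCaP and 69.7% in VCaP ERα. The entries of KRT8 and KRT18 overlap by 972 bp, which is 24.1% of the KRT18 span, and whether reads were assigned by strand is not given in the sources used here. Both genes also have many processed pseudogenes, with which reads could be shared.

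**Figure D2:**
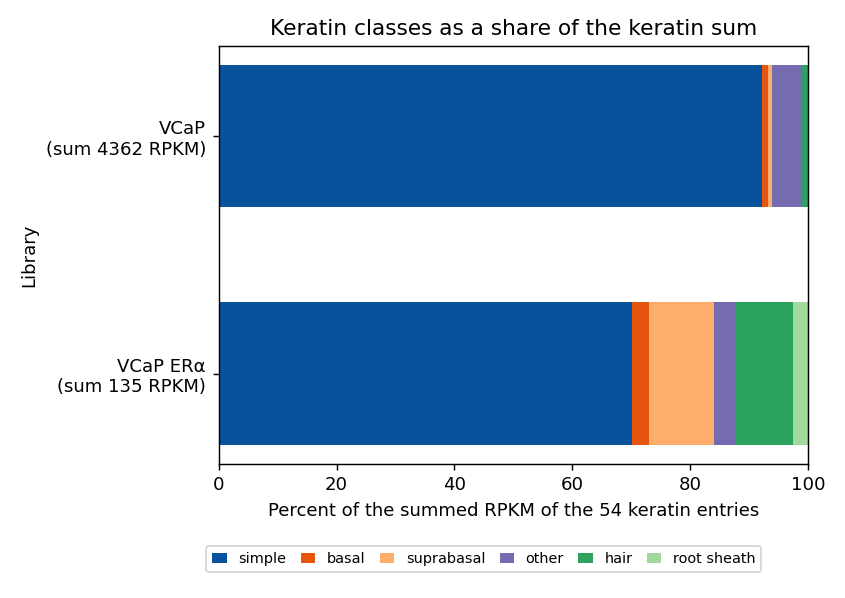
Share of the summed keratin RPKM taken by each keratin class (horizontal axis, percent) in the VCaP library (upper bar) and the VCaP ERα library (lower bar), with the sum beside each bar. Simple keratins took 92.1% in VCaP and 70.1% in VCaP ERα, while hair keratins took 1.21% and 9.70%.

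The 4 basal keratins were split, with 2 called lower. KRT17, a type I keratin of basal and appendage epithelium that is induced in stressed and proliferating epithelia (chromosome 17, 37029220 to 37034335), had 38.9 RPKM in VCaP against 0.774 RPKM in VCaP ERα, giving a log2 ratio of -4.49. KRT15, a type I keratin of basal progenitor cells (chromosome 17, 36923524 to 36931552), had 8.52 RPKM in VCaP against 1.24 RPKM in VCaP ERα, giving a log2 ratio of -2.09 that lay just past the limit and came to -1.50 after centring on the typical expressed entry. The defining basal pair was nearly silent in both libraries. KRT5 had 0.0259 RPKM in VCaP against 0.623 RPKM in VCaP ERα, and KRT14 was listed at 0 in VCaP and had 1.19 RPKM in VCaP ERα. The 2 basal keratins that were called lower were not KRT5 and KRT14, the pair that defines prostate basal cells. That pair was too low in VCaP for a lower call to be possible, so no contrast is drawn. KRT17 belongs, with KRT14 and KRT16, to a group of closely similar type I genes that can share reads.

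Suprabasal and differentiation keratins were low and mixed. KRT6A, induced with KRT16 and KRT17 in activated epithelium, had 7.41 RPKM in VCaP against 0.227 RPKM in VCaP ERα, giving a log2 ratio of -2.78, and was the only one of the 13 to be called lower. Its close copies KRT6B (0.319 and 0.518 RPKM) and KRT6C (0.278 and 0.0783 RPKM) stayed below 1 RPKM, and reads of the 3 genes could be split between them. KRT16, its type I partner, had 3.51 RPKM in VCaP against 0.538 RPKM in VCaP ERα, giving a log2 ratio of -1.55. KRT4 and KRT13 form the pair of internal stratified epithelium such as the oesophagus. KRT4 had 5.76 RPKM in VCaP against 1.37 RPKM in VCaP ERα, giving a log2 ratio of -1.51, and KRT16 and KRT4 were the entries nearest to the limit without passing it. KRT13 had 2.69 RPKM in VCaP against 1.71 RPKM in VCaP ERα, giving a log2 ratio of -0.45 that changed sign when the ratios were centred or the libraries quantile-normalized.

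KRT10, the type I keratin of differentiating epidermis, was the only keratin besides KRT8, KRT18 and KRT19 to exceed 2 RPKM in VCaP ERα. It had 9.15 RPKM in VCaP against 4.86 RPKM in VCaP ERα, giving a log2 ratio of -0.79, or -0.20 relative to the typical expressed entry. Its epidermal type II partners stayed lower. KRT1 was listed at 0 in VCaP and had 0.855 RPKM in VCaP ERα, and KRT2 was listed at 0 and had 1.13 RPKM. KRT10 therefore had no epidermal partner at a comparable level. Among keratins of specialised surfaces, KRT9, of palm and sole epidermis, was likewise listed at 0 and had 1.21 RPKM, and KRT3, of the cornea, was listed at 0 and had 1.52 RPKM.

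Of the keratins outside these classes, KRT80 and KRT23 were called lower. KRT80, a type II keratin found in many epithelia (chromosome 12, 50849047 to 50872051), had 204 RPKM in VCaP against 1.13 RPKM in VCaP ERα. Its log2 ratio of -6.59 was the 19th lowest of all entries, and its level, 180-fold lower, moved further than that of KRT8. KRT23, a type I keratin (chromosome 17, 36332478 to 36347362), had 11.4 RPKM in VCaP against 0.0995 RPKM in VCaP ERα, giving a log2 ratio of -3.49. KRT80 alone took 4.68% of the keratin sum in VCaP, more than all basal, suprabasal, hair and root sheath keratins together, and 0.840% in VCaP ERα.

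Hair keratins, which form the hard filaments of the hair shaft, included 3 entries expressed in VCaP. KRT81 (chromosome 12, 50965964 to 50988422) had 43.2 RPKM in VCaP against 0.421 RPKM in VCaP ERα, giving a log2 ratio of -4.96. KRT83 (chromosome 12, 50994352 to 51001449) had 6.86 RPKM in VCaP against 0.807 RPKM in VCaP ERα, giving a log2 ratio of -2.12 that came to -1.53 after centring. KRT86 had 2.28 RPKM in VCaP against 0.589 RPKM in VCaP ERα, giving a log2 ratio of -1.05. The 3 are neighbours and closely similar in sequence, the KRT81 entry lies wholly inside the span of the KRT86 entry, and a division of reads among them is uncertain.

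The other 14 hair keratins had at most 0.133 RPKM in VCaP and all 14 were higher in VCaP ERα (13 after quantile normalization), from 0.0597 RPKM (KRT40) to 1.66 RPKM (KRT35). No type I hair keratin exceeded 0.133 RPKM in VCaP, so KRT81 was expressed there without a type I hair partner at a comparable level. In VCaP ERα, KRT36 had 1.58 RPKM, KRT82 1.37 RPKM, KRT37 1.16 RPKM, KRT85 1.10 RPKM and KRT38 1.00 RPKM. Their log2 ratios lay between 0.95 and 1.35 with that of KRT35, below the limit of 2. The 9 root sheath keratins, of the sheath around the hair, had no member above 0.104 RPKM in VCaP and 1 above 1 RPKM in VCaP ERα, KRT71 with 1.09 RPKM. KRT78 (0.246 and 1.06 RPKM) and KRT79 (0.0651 and 1.60 RPKM), type II keratins outside these classes, behaved likewise.

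These low values were common to keratins of unlike tissues. Of the 24 keratins listed at 0 in VCaP, 22 were above 0 in VCaP ERα (91.7%), with a median of 0.415 RPKM, against 63.9% of the 8757 entries listed at 0 in VCaP, with a median of 0.0939 RPKM. The 38 keratins under 1 RPKM in VCaP had a median of 0 RPKM there and 0.686 RPKM in VCaP ERα, with a highest value of 1.66 RPKM. All 14162 entries under 1 RPKM in VCaP had a median of 0.208 RPKM in VCaP ERα. Among 372 olfactory receptor entries, a family with no known role in prostate epithelium, 4.57% were above 0 in VCaP and 32.3% in VCaP ERα, with a highest value of 1.44 RPKM. Among 79 KRTAP entries the shares were 11.4% and 44.3%, with a highest value of 0.784 RPKM in VCaP ERα. A low value above 0 was therefore more frequent in VCaP ERα for silent families too, and its part in the low keratin values was not tested.

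**Figure D3:**
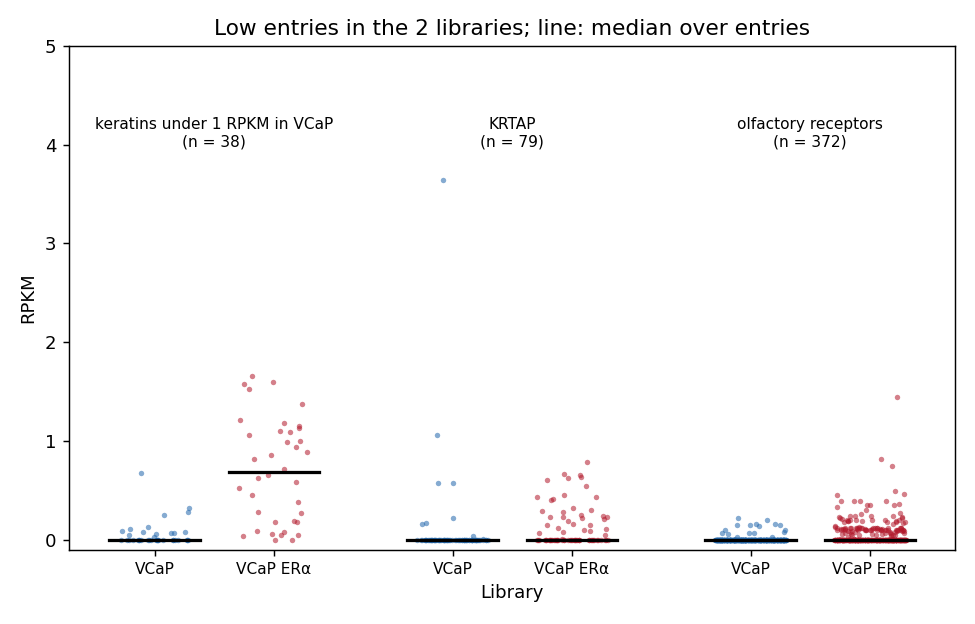
RPKM (vertical axis, linear) of single entries in each library, for the 38 keratins under 1 RPKM in VCaP, the 79 KRTAP entries and the 372 olfactory receptor entries, with the median over entries as a line. The keratins had a median of 0.686 RPKM in VCaP ERα, while the medians of the KRTAP and olfactory receptor entries were 0 in both libraries.

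The balance of chain types was alike in both libraries although the sums were not. Type I keratins summed to 2374 RPKM in VCaP against 72.5 RPKM in VCaP ERα, and type II keratins to 1988 and 62.1 RPKM. The ratio of type II to type I was 0.838 in VCaP and 0.857 in VCaP ERα. Calls were also spread over both types, with 5 of 28 type I and 6 of 26 type II entries lower. The ratio rests on a few genes, and without KRT19 it was 2.66 in VCaP and 0.927 in VCaP ERα. KRT8, the only abundant type II keratin in VCaP besides KRT80, was there set against both KRT18 and KRT19, whereas in VCaP ERα KRT18 alone was close to the KRT8 level.

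Keratin genes lie in a pair of clusters, and the lower entries were not contiguous in either. On chromosome 12 the 27 keratin entries, all type II genes plus KRT18, spanned 784 kb (50849047 to 51632952). The first 5 in order of position, KRT80, KRT7, KRT86, KRT81 and KRT83, and the last 2, KRT8 and KRT18, were lower in VCaP ERα. Between them lay 20 entries, of which KRT6C, KRT6A and KRT4 were lower and 17 were higher without passing the limit. On chromosome 17 the 27 type I entries spanned 927 kb (36107769 to 37034335). The run from KRT39 to KRT36, 11 entries all of the hair type, was higher throughout (10 of 11 after quantile normalization), with no entry above 0.133 RPKM in VCaP. Before this run, KRT10, KRT20 and KRT23 were lower among 6 entries that were at 0 in VCaP. The adjacent KRT13, KRT15 and KRT19 and the terminal KRT16 and KRT17 were lower, separated by KRT9 and KRT14, both listed at 0 in VCaP. KRT19 thus lay between KRT15, which was called lower, and KRT9, which was listed at 0 in VCaP. KRT81 lay between KRT86 and KRT83, which were both lower too.

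Other genes around the clusters gave mixed values. Within 500 kb on either side, 2 of 31 entries were called lower on chromosome 12 and 4 of 32 on chromosome 17, and 0 were called higher. Over all entries, 6.56% were called lower and 2.27% higher, and 14.5% of those with at least 1 RPKM in VCaP were called lower. Of the 4 on chromosome 17, IGFBP4 (log2 ratio -2.48), RAB5C (-2.42) and RARA (-2.07) would lie inside the limit after centring. On chromosome 12 the 18 flanking entries with at least 1 RPKM in 1 library had a median log2 ratio of -1.03. On chromosome 17 the 26 such entries had -0.23, against -0.59 for all expressed entries. The lowest were RARG (37.5 and 1.29 RPKM) on chromosome 12 and JUP (242 and 8.32 RPKM) on chromosome 17. RARG encodes a retinoic acid receptor and JUP the desmosomal plakoglobin, and other entries lay between each gene and its cluster.

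**Figure D4:**
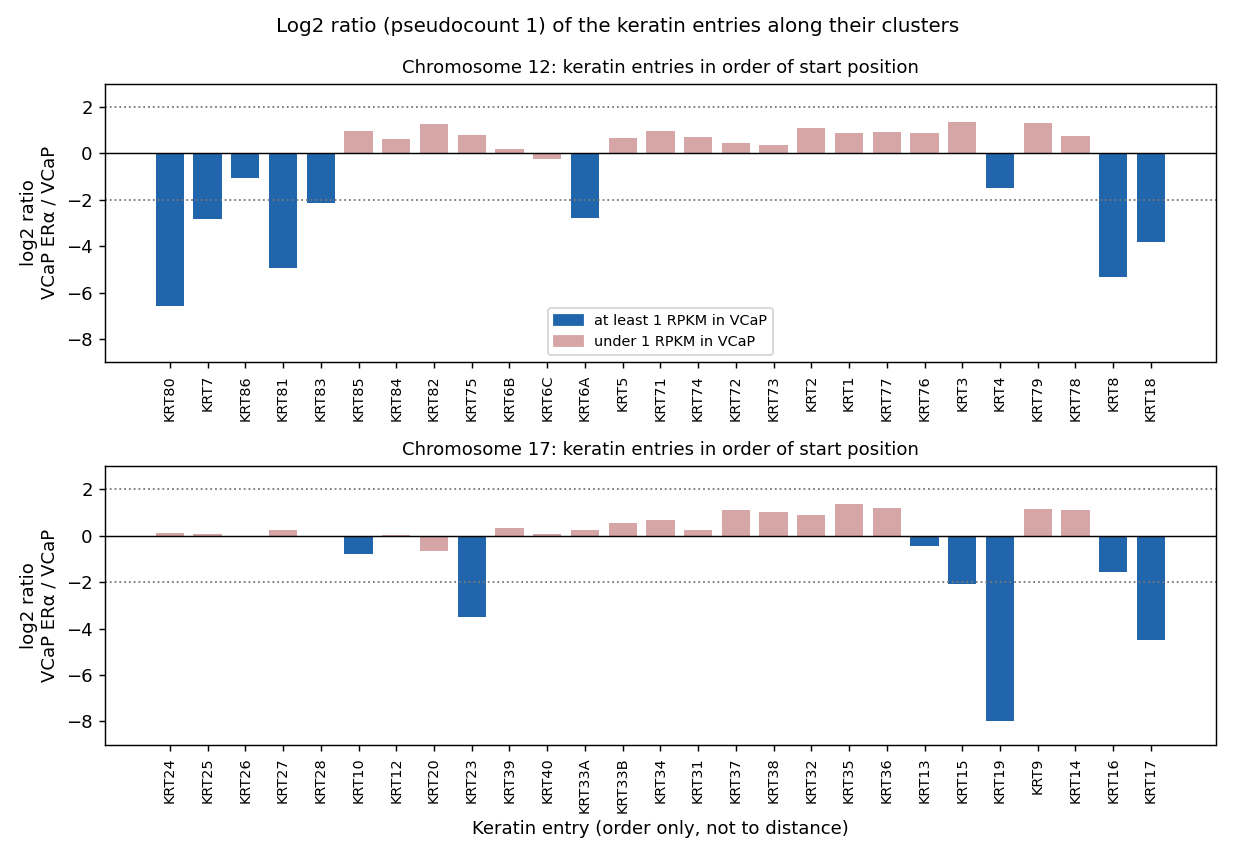
Log2 ratio of VCaP ERα over VCaP (vertical axis, pseudocount 1 RPKM) for the keratin entries of chromosome 12 (top) and chromosome 17 (bottom) in order of position, with dotted lines at the limits of -2 and 2. Dark bars mark the 16 entries with at least 1 RPKM in VCaP, which were all lower in VCaP ERα (KRT13 only without centring or quantile normalization), between lighter bars of which most were above 0 and none passed 2.

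Keratin filaments are anchored at desmosomes, which join cells, and at hemidesmosomes, which join cells to the basement membrane. Of 13 desmosome genes, 4 were called lower and 2 higher (2 and 3 after centring), with a median log2 ratio of 0.02 over the list and of 0 over all entries. The shares called over all entries were 6.56% lower and 2.27% higher. JUP, given above, and DSP, the desmoplakin that binds keratins (82.6 RPKM in VCaP against 6.48 RPKM in VCaP ERα), were lower, as were the plakophilins PKP3 (13.6 and 2.42 RPKM) and PKP4 (10.9 and 1.33 RPKM). The desmosomal cadherins DSC2 and DSC3 were called higher. DSC2 had 1.14 RPKM in VCaP against 19.7 RPKM in VCaP ERα, and DSC3 was listed at 0 in VCaP and had 3.56 RPKM.

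Plakin linkers and hemidesmosome genes were called lower in 5 of 9 cases and higher in 0, against 6.56% called lower over all entries and 14.5% over those with at least 1 RPKM in VCaP, and the median log2 ratio was -2.06. After centring or quantile normalization 3 of the 9 were called lower. The largest difference was that of ITGB4, the integrin chain of the hemidesmosome, with 75.0 RPKM in VCaP against 0.570 RPKM in VCaP ERα. The cytolinkers PPL (48.0 and 0.998 RPKM), PLEC (48.7 and 2.32 RPKM, listed as PLEC1) and EVPL (10.5 and 1.75 RPKM) and the tetraspanin CD151 (93.9 and 19.6 RPKM) were also lower. ITGA6, the partner chain of ITGB4, differed from the rest of the list in direction, at 2.07 RPKM in VCaP against 4.69 RPKM in VCaP ERα, giving a log2 ratio of 0.89. Of 14 cornified envelope genes 3 were lower and 0 higher (2 and 0 after centring): CALML5 (336 and 0.258 RPKM), SPRR3 (11.1 and 0.240 RPKM) and SPRR1B (5.34 and 0.0779 RPKM). The median log2 ratio of this list was -0.04, and only 4 of the 14 reached 1 RPKM in VCaP. Log2 ratios were below 0 for 7 and above 0 for 5, among them SBSN (listed at 0 and 1.25 RPKM) and KRTDAP (listed at 0 and 1.11 RPKM). CSTA, a protease inhibitor of the envelope, had 1.64 RPKM in VCaP and was listed at 0 in VCaP ERα.

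Among 15 genes of other intermediate filaments, 2 were called lower and 3 higher (1 and 3 after centring), with a median log2 ratio of 0.17. The shares called over all entries were 6.56% lower and 2.27% higher. LMNA, encoding the A-type nuclear lamins, had 36.1 RPKM in VCaP against 1.23 RPKM in VCaP ERα, giving a log2 ratio of -4.05, and the lens filament gene BFSP1 had 5.44 and 0.360 RPKM. The 3 higher genes encode neuronal filaments. INA had 0.0244 RPKM in VCaP against 18.9 RPKM in VCaP ERα, NEFH was listed at 0 and had 7.02 RPKM, and NEFL was listed at 0 and had 6.58 RPKM. VIM, the filament of mesenchymal cells, had 0.420 RPKM in VCaP against 0.246 RPKM in VCaP ERα. In VCaP ERα, INA was thus more abundant than every keratin except KRT8 and KRT18.

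Regulators and surface markers of epithelium were called lower in 8 of 17 cases and higher in 1, with 6.56% of all entries lower and 2.27% higher, and the median log2 ratio was -1.27. After centring or quantile normalization 5 were called lower and 1 higher, and the centred median was -0.68. TFAP2C (40.2 and 1.66 RPKM), KLF5 (21.8 and 0.978 RPKM) and ELF3 (28.7 and 1.78 RPKM) were lower, as was the adhesion gene CDH1 (122 and 14.4 RPKM). EHF, an epithelial ETS factor, was called higher, at 0.801 RPKM in VCaP against 38.0 RPKM in VCaP ERα, giving a log2 ratio of 4.43. EPCAM, a general epithelial surface marker, had 50.7 RPKM in VCaP against 82.6 RPKM in VCaP ERα, and GRHL2, an epithelial regulator, had 33.0 and 13.1 RPKM. Both libraries therefore expressed epithelial markers beyond the keratins.

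Markers of other cell types were compared over their whole lists. As a comparison, 6.56% of all entries were called lower and 2.27% higher. Among entries with at least 1 RPKM in VCaP, 14.5% were called lower. Of 12 basal epithelium genes, 4 were called lower and 0 higher, with sums of 106 RPKM in VCaP against 31.0 RPKM in VCaP ERα. They were SFN (32.4 and 0.273 RPKM), CDH3 (13.2 and 0.673 RPKM), LAMB3 (13.0 and 0.740 RPKM) and TP63, the defining basal transcription factor (3.79 and 0.0400 RPKM). After centring or quantile normalization 3 of the 12 were called lower. TP63, with a log2 ratio of -2.20, came to -1.61 after centring and -1.96 after quantile normalization and lost its call. Mesenchymal genes summed to 13.2 RPKM in VCaP against 3.94 RPKM in VCaP ERα over 12 genes, of which FN1 was called lower, and ZEB2, TWIST1 and COL1A2 in VCaP and ZEB1 and COL3A1 in VCaP ERα were listed at 0. Of 8 neuroendocrine genes 2 were called higher, CHGA (listed at 0 in VCaP, 3.80 RPKM in VCaP ERα) and CHGB (listed at 0 and 4.53 RPKM), while after centring 4 were higher. The 8 haematopoietic genes summed to 1.03 and 1.15 RPKM, with none called. All 12 prostate luminal genes were called higher, and of the 14 mammary luminal genes 5 were called lower and TBX3 higher (5 and 2 after centring). The lists were drawn up with results of these libraries known, and the part that a difference in cell type has in the keratin values was not tested.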

How the data were processed

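RNA of VCaP and VCaP ERα cells, 1 library each, was analysed as the authors deposited it, in RPKM per known-gene entry. No normalization between libraries is stated. The submitters' processing notes name CASAVA 1.8 and the builds mm10 and hg18, with no roles. The human coordinates were taken as hg18, and the aligner and the counting are not given in the sources used here. No read totals were used, so no interval or detection floor was computed, and the limited precision of low values is unquantified.

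Every entry was kept, and log2 ratios used a pseudocount of 1 RPKM and limits of -2 and 2, the threshold by which the study selected upregulated genes. Ratios understate changes of low entries. Sums are of RPKM. Keratins were classed as simple, basal, suprabasal, root sheath, hair and other. Each keratin with at least 1 RPKM in 1 library is named, together with the extremes of a class. The 11 gene lists matched in 134 of 134 names. Of the lists of keratin partners the 4 largest ratios are named, with some but not all of the genes running against their list. Further genes, and the olfactory receptor and KRTAP comparison, were chosen after values were seen. A further gene of the lists is not reported here. Members and lists were chosen with earlier results of these data known. Tried as well were centring on expressed entries, quantile normalization, 1 entry per symbol, a minimum of 1 RPKM in 1 library, a pseudocount of 0.1, a limit of 1, and sums without the highest keratin. Counts or ratios within 1.5 times were taken as unchanged. The computation was checked on simulated data. Software was matplotlib 3.10.9, numpy 2.4.6, pandas 2.3.3 and Python 3.11.15.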

Additional observations from a re-analysis of the deposited data

How the results depend on the processing

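The number of keratins called lower, 11, was 9 after centring or quantile normalization (KRT15 and KRT83 dropped out), 13 with a pseudocount of 0.1 and 14 with a limit of 1. The number called higher, 0, became 23 with a pseudocount of 0.1 and 10 with a limit of 1, because that pseudocount admits keratins below 2 RPKM in VCaP ERα. The log2 ratio of the keratin sums, -5.02, came to -4.43 after centring, and stayed between -4.83 and -4.73 without KRT8 or after quantile normalization. Without KRT8, the highest keratin in VCaP (KRT18 was highest in VCaP ERα), the ratio of type II to type I was 0.118 in VCaP and 0.284 in VCaP ERα. Of the 29 keratins with at least 1 RPKM in at least 1 library, KRT13 alone changed sign, after centring and after quantile normalization. Some keratins below that level changed sign too, among them KRT6C after centring, and KRT6B and KRT40 after quantile normalization. The number of listed genes called, 32 lower and 21 higher, stayed within 1.5 times under the alternatives run, with 23 lower and 25 higher after centring and 25 and 24 after quantile normalization. No paired analysis was possible because each condition has 1 library. What depth limits was not quantified.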

Other observations

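Genes with names close to the keratins were examined outside the comparisons above. The keratinocyte-associated transmembrane gene KRTCAP2 had 15.7 RPKM in VCaP against 10.9 RPKM in VCaP ERα, giving a log2 ratio of -0.49, and KRTCAP3 had 4.70 and 1.47 RPKM. KRT222P was listed at 0 in VCaP and had 0.0518 RPKM in VCaP ERα. TMEM99, an entry inside the type I cluster, had 2.95 RPKM in VCaP against 1.74 RPKM in VCaP ERα.

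Of the 79 KRTAP entries, which encode the matrix proteins between hair keratin filaments, 2 reached 1 RPKM in VCaP and 0 did so in VCaP ERα. KRTAP3-1 (chromosome 17, 36418300 to 36418892) had 3.64 RPKM in VCaP and was listed at 0 in VCaP ERα, giving a log2 ratio of -2.21. KRTAP4-1 (chromosome 17, 36593878 to 36616652) had 1.06 RPKM in VCaP and was listed at 0 in VCaP ERα. The nearest hair keratins on either side, KRT40 and KRT33A, were listed at 0 in VCaP and had 0.0597 and 0.188 RPKM in VCaP ERα. These 2 KRTAP entries were picked by their VCaP level, and a keratin at 0 there cannot be lower. An opposite direction was therefore fixed by the choice, and no contrast is drawn.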
